A study of Neurospora crassa OR74A with 13 samples.

Results

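In Neurospora crassa shifted to medium with no carbon source, 30 of 9733 genes met both a minimum level and a fold threshold. Each stood at least 2-fold above every library of the same strain on cellulose or on sucrose. Transcript levels were deposited as FPKM (sequenced fragments per length of transcript and per size of library) and were summed per gene. A gene was taken when its lowest value in the 3 wild-type no carbon libraries was at least 10 FPKM and, with 1 added to every value, at least 2 times its highest value in the 6 wild-type libraries on Avicel and sucrose. The minimum was met by 7664 genes and the fold by 67 genes, and both by 30. The genes were thus chosen by their no carbon, Avicel and sucrose values in the wild type, so the 3 wild-type media are described against each other without a test.

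The fungus was pregrown for 16 h in sucrose medium, washed, and moved to fresh medium for 4 h, with either Avicel (a crystalline cellulose powder), cellobiose, sucrose or nothing as carbon source. The wild type was the strain FGSC 2489, with 3 libraries each on no carbon, Avicel and sucrose, which the submitters call biological triplicates and mark as copies of an earlier deposit, and 1 library on cellobiose. TBGK is a mutant in which NCU04952 (gh3-4), NCU00130 (gh1-1) and NCU08755 (gh3-3) are deleted, with 1 library each on Avicel, cellobiose and sucrose and none on no carbon. All 7 groups shared the pregrowth on sucrose, and each single library stands for 1 culture with no replicate. In the mutant libraries the 3 genes lay between 0 and 9.21 FPKM. For gh3-4 the deletion was visible only on Avicel, with 3.23 FPKM in TBGK and 1827, 189 and 224 in the wild type. The wild type itself had 0, 0.983 and 0 FPKM of gh3-4 on sucrose and 1.36 on cellobiose, beside 1.09 and 1.66 in TBGK. A library reads whole mycelium, so a larger share of one kind of cell and more transcript per cell cannot be told apart.

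Neurospora is a filamentous fungus of burnt and decaying plants that feeds by secreting enzymes. Cellulases cut cellulose to cellobiose, and beta-glucosidases split cellobiose into glucose. The genes deleted in TBGK encode enzymes of this class, but not the whole class. When sugar runs out, fungi lift carbon catabolite repression, make sugar from acetyl units through the glyoxylate cycle and gluconeogenesis, recycle their own material by autophagy, and often begin to form aerial hyphae and asexual spores, the conidia. In this species conidia and aerial hyphae carry con gene products and the hydrophobin EAS.

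Depth in the 9 wild-type triplicate libraries spanned an 11.96-fold range, from 472 to 5640.4 aligned megabases, with Avicel replicate 1 and sucrose replicate 1 the shallowest. For the 4 single libraries depth is not known. Between 718 and 2341 genes were listed at 0 in a library. Every member was read well on no carbon: the lowest mean coverage of a member in a no carbon library was 15.9 reads per base (NCU09580). At the fold threshold, NCU05784 (88.8 FPKM against 43.9) and NCU07068 (2.02) lay just inside, and con-10 (NCU07325, 1399.9 FPKM against 699) and NCU07434 (1.996) just outside. At the minimum, NCU02365 (28.0 FPKM) and NCU08622 (31.4 FPKM) were the lowest inside, and NCU02939 (8.84 FPKM) and NCU08153 (8.74 FPKM) were the highest outside that met the fold. Another 79 genes had a fold between 1.5 and 2.

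Of the 30 genes, 29 were in the reference gene table and only 2 carried a symbol, ada-6 and ncw-6. The other 28 are given by identifier, with no role. On no carbon, 7 members averaged over 1000 FPKM, 17 lay between 100 and 1000, and 6 lay under 100. The median of their means was 314 FPKM, beside 141 FPKM for all genes over the minimum. The Avicel mean was a median of 23.4% of the no carbon mean, with a range of 11.4% (NCU07718) to 42.6% (NCU11944). The sucrose mean was a median of 2.02% of it, with a range of 0% to 36.4% (NCU04851). As a description, limma (a test per gene with a spread shared across genes, called here at an adjusted p under 0.05) put 24 of the 30 higher on no carbon than on Avicel, where 1.72% of all genes tested were called higher. It put 30 of 30 higher than on sucrose, where 40.2% of all genes were. In that contrast quantile normalization, which forces the libraries to the same distribution, moved the median of all genes from 0.39 to -0.04 log2 units and the share of calls that were higher from 62.5% to 49.4%. Both contrasts chose the members, so nothing is read from these counts.

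**Figure D1:**
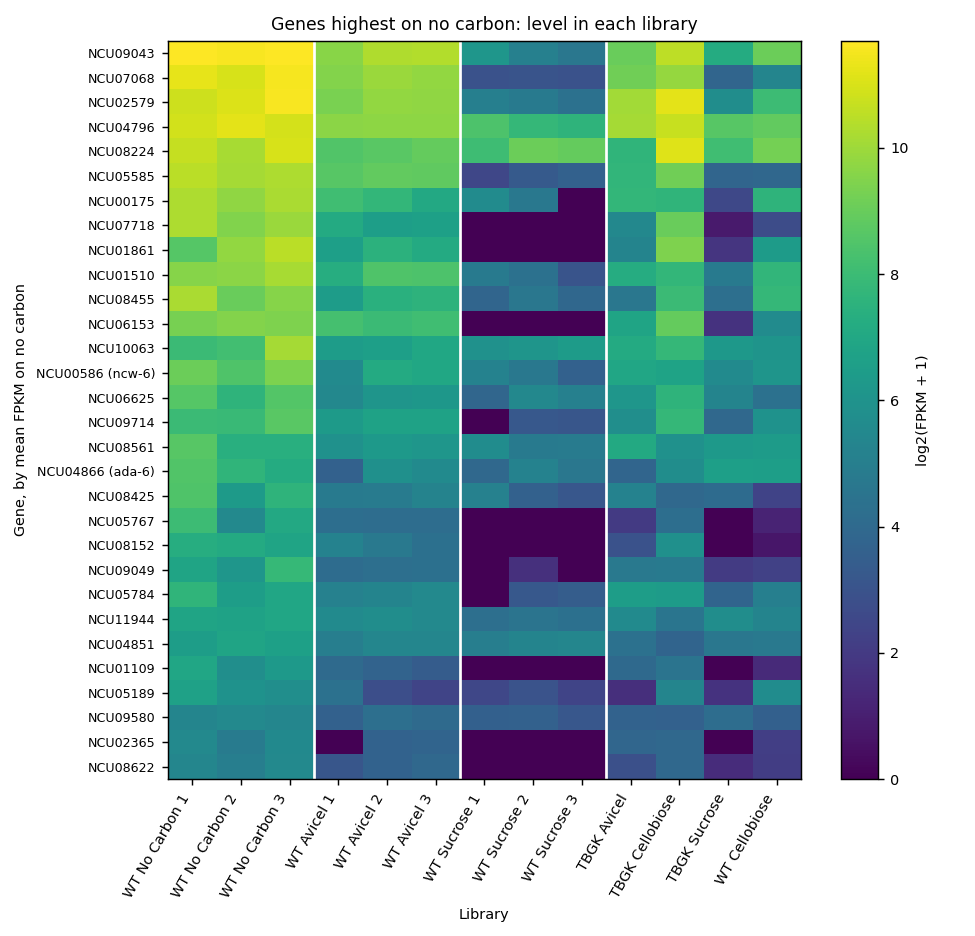
Level of each of the 30 genes in each of the 13 libraries, as log2(FPKM + 1) on the color scale, with genes in order of mean level on no carbon and white lines between the wild-type groups and the single libraries. By the rule, the 3 no carbon columns are the brightest of those of the wild type on Avicel, sucrose or no carbon, 8 genes are listed at 0 in all 3 sucrose libraries, and among the single libraries TBGK on cellobiose is highest for 20 genes.

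ada-6 (NCU04866, contig 4, 536988 to 539514) encodes a zinc cluster transcription factor needed for asexual development in this fungus. Its FPKM on no carbon was 369, 198 and 144, a mean of 237 ± 118 (SD, n = 3). Avicel libraries gave 11.5, 57.2 and 47.7, and sucrose libraries 14.6, 35.5 and 24.3. The Avicel and sucrose libraries overlapped, and the Avicel mean exceeded the sucrose mean by 0.43 ± 0.62 (SE) on the log2(FPKM + 1) scale. Its levels were 93.1 FPKM in the wild type on cellobiose, 97.5 in TBGK on sucrose, 52.5 in TBGK on cellobiose and 13.2 in TBGK on Avicel. It was thus one of 2 members, with NCU08561, that stood above all 6 wild-type Avicel and sucrose libraries in TBGK on sucrose.

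ncw-6 (NCU00586, contig 1, 7917288 to 7919267) is named for a cell wall protein without a membrane anchor. On no carbon it reached 539.9, 352 and 681 FPKM, a mean of 524 ± 165 (SD, n = 3). The Avicel libraries had 47.9, 142 and 126 and the sucrose libraries 35.0, 24.9 and 11.5. Every Avicel library lay above every sucrose library, and ncw-6 was higher on Avicel by 2.08 ± 0.51 (SE) log2 units. In the single libraries it was 121 FPKM in TBGK on Avicel, 111 in TBGK on cellobiose, 67.0 in the wild type on cellobiose and 47.9 in TBGK on sucrose.

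The 5 genes with the widest gap between no carbon and the rest were NCU07718, NCU09049, NCU01109, NCU08152 and NCU00175, the members with a fold over 3. NCU07718 (contig 4, 2098540 to 2101005) had the widest, 5.05. The no carbon libraries held 1230.0, 719.6 and 990.4 FPKM, those on Avicel 142, 93.5 and 98.7, and all 3 on sucrose 0. NCU09049 (contig 7, 3801631 to 3802916) had a fold of 3.55, with 113, 70.3 and 225 FPKM on no carbon and 16.5, 18.5 and 19.1 on Avicel, with 0, 2.12 and 0 on sucrose. Both held the order no carbon, Avicel, sucrose with no overlap between groups.

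NCU01109 (contig 5, 2941831 to 2942678; fold 3.37) had 121, 54.0 and 79.5 FPKM on no carbon, 15.3, 12.3 and 9.62 on Avicel, and 0 on sucrose. NCU08152 (contig 7, 697675 to 700616; fold 3.14) had 158, 142 and 114 FPKM on no carbon, 35.5, 25.6 and 18.7 on Avicel, and 0 on sucrose. These 2 genes lay below the members' median of 314 FPKM on no carbon, with means of 85.0 and 138, and had a full order of the groups. NCU00175 (contig 3, 2902309 to 2903859; fold 3.06) was more abundant, with 1222, 854 and 1186 FPKM on no carbon and 278, 211 and 131 on Avicel, with 49.6, 24.6 and 0 on sucrose. Its sucrose libraries differed widely, and its SE of 1.22 for Avicel against sucrose was the widest of the 30.

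The next 3 by fold were NCU08455 (2.79), NCU06625 (2.72) and NCU05189 (2.63). NCU08455 had 1192, 527 and 771 FPKM on no carbon against 88.4 to 188 on Avicel and 13.1 to 24.1 on sucrose. NCU06625 had 394, 196 and 373 FPKM on no carbon against 42.6 to 71.3 on Avicel and 13.8 to 43.7 on sucrose. NCU05189 had 101, 62.2 and 53.1 FPKM on no carbon, and its Avicel values of 19.6, 5.92 and 4.23 overlapped the sucrose values of 4.62, 6.90 and 4.35. The folds of 22 members were under 2.5.

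NCU09043 (contig 7, 3822886 to 3824209) was the most abundant member on no carbon. It was also the most even, with 3283, 3093 and 3323 FPKM, a mean of 3233 ± 123 (SD, n = 3). It had 787, 1246 and 1317 FPKM on Avicel, with 70.6, 33.2 and 24.1 on sucrose. NCU07068 (contig 6, 275769 to 278684) followed with 2429.6, 2005 and 3007 FPKM on no carbon and 746, 992 and 896 on Avicel, with 6.70, 7.33 and 6.74 on sucrose. In both genes the Avicel level was high and the sucrose level low.

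NCU02579 (contig 1, 2795127 to 2796651) had 1796, 2166 and 3023 FPKM on no carbon and 643, 889 and 854 on Avicel, with 32.3, 27.1 and 19.5 on sucrose. NCU04796 (contig 6, 851485 to 853349) had 1895, 2349 and 1984 FPKM on no carbon and 805, 835 and 839 on Avicel, with 348, 219 and 191 on sucrose. NCU05585 (contig 6, 1422875 to 1425193) had 1416, 1098 and 1221 FPKM on no carbon and 406, 471 and 461 on Avicel, with 4.62, 9.07 and 11.6 on sucrose. The sucrose level thus differed widely among members with a like level on no carbon.

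NCU08224 (contig 3, 4686741 to 4687494) had 1632, 1155 and 2043 FPKM in the no carbon libraries, 368, 413 and 484 in those on Avicel and 269, 529.7 and 495 in those on sucrose. It was the only member whose highest Avicel or sucrose value came from sucrose, and its Avicel and sucrose libraries overlapped. NCU01861 (contig 1, 2226728 to 2228118) had 391, 878 and 1439 FPKM on no carbon, 95.4, 181 and 142 on Avicel and 0 in each sucrose library. NCU01510 (contig 2, 3227828 to 3232360), the longest member with 4391 bases of transcript, had 750.0, 810.1 and 1147 FPKM on no carbon and 154, 352 and 340.3 on Avicel, with 26.8, 19.5 and 7.23 on sucrose.

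The no carbon replicates, whose values entered the rule, differed widely for many members. The highest no carbon library was a median of 1.71 times the lowest, beside 1.37 times for all genes over the minimum. The range was over 2-fold for 11 members (36.7%) and for 15.2% of the genes over the minimum. It reached 5.90-fold for NCU05767, with 261, 44.2 and 131 FPKM. NCU10063 had 248, 286 and 1119.6 FPKM, and NCU08425 had 355, 81.6 and 192. Replicate 1 was highest for 13 members, replicate 2 for 4 and replicate 3 for 13, beside 28.8%, 33.0% and 38.2% of all genes tested. Replicate 2 was the lowest for 18 members, where it was the lowest for 42.2% of all genes tested. It therefore often set whether a gene met the rule: without it, 106 genes met the rule in place of 30. Without replicate 1 the number was 62, and without Avicel replicate 1 it was 66.

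The members also differed in how far cellulose stood from sucrose. Every Avicel library lay above every sucrose library for 22 members, and the groups overlapped for the other 8. Over the members the median difference was 3.33 log2 units. The Avicel and sucrose values entered the rule, so these are descriptions. Limma over 9 libraries called 21 of the 30 higher on Avicel and 0 lower. Among all 8759 genes tested 33.9% were called higher and 24.5% lower, and in 35.6% no Avicel library reached down to a sucrose one. Those are mostly genes that the rule did not take, so nothing is read from the members' counts against them. With quantile normalization the median of all genes tested moved from 0.26 to -0.06. The share of calls that were higher then moved from 58.0% to 47.4%, 18 members were called higher, and 2, NCU04851 and NCU09580, were called lower.

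The 5 genes with the largest differences had between 0 and 11.6 FPKM in the wild-type sucrose libraries. NCU06153 (contig 7, 2638133 to 2640169) had 303, 247 and 279 FPKM on Avicel and 0 in every sucrose library, and 628, 744 and 699 on no carbon. It was higher on Avicel than on sucrose by 8.11 ± 0.17 (SE) log2 units. The differences were 7.09 for NCU01861, 6.79 for NCU07718, 6.78 for NCU07068 and 5.64 for NCU05585. In each of these 5 genes all 3 Avicel libraries stood above all 3 sucrose libraries. For NCU06153, NCU01861 and NCU07718, listed at 0 on sucrose, the size depends on the 1 added before taking logs.

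The smallest differences among the 21 were 1.25 for NCU11944, 1.75 for NCU04796, 2.08 for ncw-6, 2.48 for NCU02365 and 3.03 for NCU08455. NCU11944 (contig 2, 1885631 to 1886028) had 47.6, 52.0 and 44.1 FPKM on Avicel, with 18.1, 21.7 and 19.0 on sucrose, a small gap and a small spread. NCU02365 (contig 7, 1516044 to 1516605) had 0, 11.7 and 12.7 FPKM on Avicel and 0 on sucrose, so that its groups touched at 0. Its call was lost when any single library other than Avicel replicate 1 was left out.

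The 9 members not called were NCU06625, NCU05189, ada-6, NCU08425, NCU08224, NCU04851, NCU08561, NCU09580 and NCU10063. NCU08224 differed by 0.02 ± 0.30 (SE) and NCU04851 by 0.04 ± 0.21 (SE) log2 units. NCU04851 had 89.6, 112 and 98.0 FPKM on no carbon and 30.9, 40.9 and 40.3 on Avicel, with 30.8, 38.3 and 39.7 on sucrose, and the 2 media overlapped. NCU08561 differed by 0.998 ± 0.383 (SE). Its FPKM was 59.2, 77.5 and 69.7 on Avicel, with 50.6, 27.2 and 27.8 on sucrose, which did not overlap.

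**Figure D2:**
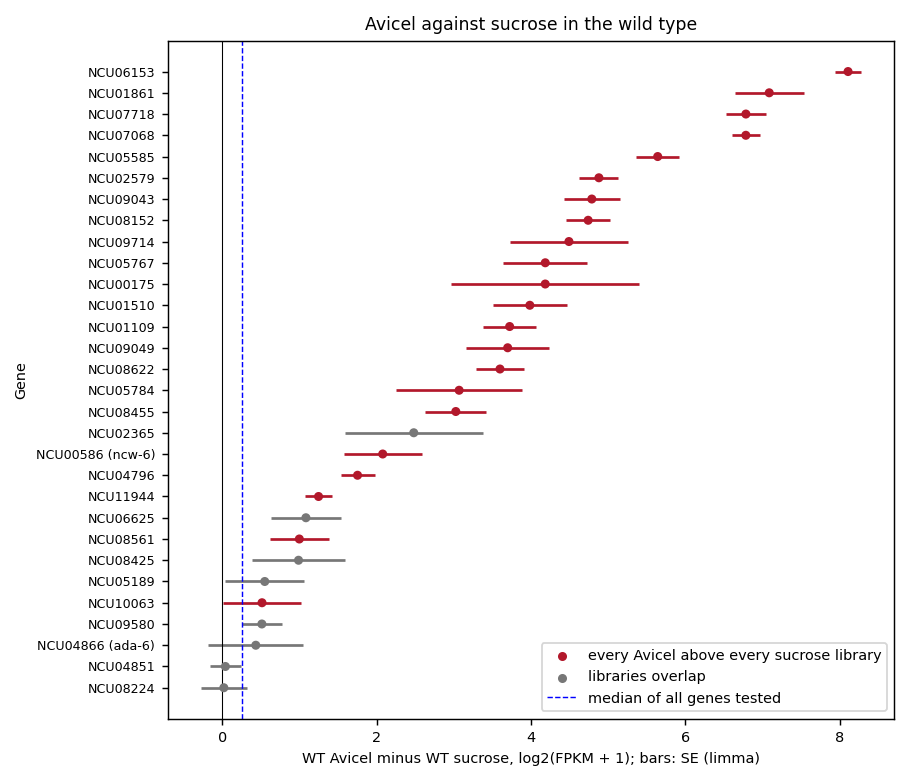
Difference between the wild type on Avicel and on sucrose for each of the 30 genes, in log2(FPKM + 1), with bars for the SE of limma over 3 libraries a group. Red marks the 22 genes in which every Avicel library lay above every sucrose library and grey the 8 in which the groups overlapped. The dashed line marks the median of all genes tested at 0.26.

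Transcripts of 8 members (26.7%) were listed at 0 in all 3 sucrose libraries, beside 2.05% of the 7664 genes over the minimum. The rule favors genes with a low sucrose level, so nothing is read from this difference. Sucrose replicate 1 was also among the shallowest libraries, with 2341 genes at 0. The 8 were NCU07718, NCU01109, NCU08152, NCU05767, NCU01861, NCU02365, NCU08622 and NCU06153. In TBGK on sucrose, a library the rule did not use, NCU01109, NCU08152, NCU05767 and NCU02365 were again listed at 0. The other 4 had 0.776 (NCU07718), 1.76 (NCU08622), 2.25 (NCU06153) and 2.49 FPKM (NCU01861). NCU05767 had 17.5, 17.0 and 17.2 FPKM on Avicel, and NCU08622 had 7.85, 11.9 and 14.6. A value of 0 gives no upper limit here, since whole reads could not be recovered.

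The mutant libraries and the wild type on cellobiose took no part in the choice of the genes. They had 1 library a group, so differences were taken on the log2(FPKM + 1) scale, counted when at least 2-fold, and given no test. Levels were a median of 12.2% of the no carbon mean in the wild type on cellobiose, 17.8% in TBGK on Avicel, 37.5% in TBGK on cellobiose and 3.82% in TBGK on sucrose, where the no carbon values had chosen the members. The triplicates come from another deposit than these libraries, and between them deposit, strain and medium cannot be told apart.

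In TBGK, 20 members were at least 2-fold higher on Avicel than on sucrose, 1 was lower and 9 lay between. Among all 9733 genes, 25.6% were at least 2-fold higher and 17.1% lower. Only 7664 of these genes met the minimum on no carbon that every member met. The rule also favors genes with a low sucrose level in the wild type. Here and in the comparisons of single libraries below, nothing is therefore read from the members' counts against the shares of all genes. The median difference was 1.82 log2 units over the members and 0 over all genes. The largest were 5.35 for NCU07068 (569.6 against 12.95 FPKM), 5.23 for NCU00175 (213 against 4.71), 5.13 for NCU06153 (113 against 2.25), 4.65 for NCU07718 (43.5 against 0.776) and 4.38 for NCU02579 (1090.2 against 51.5). The smallest past the fold were 1.13 for NCU08425, 1.31 for ncw-6, 1.37 for NCU08622, 1.47 for NCU04796 and 1.82 for NCU09043. The member that was lower on Avicel was ada-6, with a difference of -2.80 (13.2 against 97.5 FPKM).

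On cellobiose, 24 members in TBGK were at least 2-fold higher than on sucrose, 1 was lower and 5 lay between, beside 27.4% and 19.3% of all genes. The median difference was 3.16 log2 units. The largest were 8.22 for NCU07718 (528 against 0.776 FPKM), 7.62 for NCU01861 (686 against 2.49), 7.24 for NCU06153 (491 against 2.25), 6.06 for NCU07068 (929 against 12.95) and 5.86 for NCU08152 (57.0 against 0). The smallest past the fold were 1.19 for ncw-6, 1.56 for NCU10063, 2.06 for NCU04796, 2.36 for NCU06625 and 2.49 for NCU08622. NCU11944 was the one lower member, at 22.6 against 51.9 FPKM. These 2 comparisons share the TBGK sucrose library, and neither count is read against the share of all genes.

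Set directly against TBGK on Avicel, TBGK on cellobiose was at least 2-fold higher for 15 members and lower for 3, NCU08425, NCU08561 and NCU11944. This comparison was added after the data were seen. Of all genes, 9.34% were higher and 7.82% lower. The differences reached 4.16 for NCU01861 (686 against 37.6 FPKM), 3.74 for NCU05189 (39.6 against 2.03) and 3.57 for NCU07718 (528 against 43.5). TBGK on cellobiose was the highest of the 4 single libraries for 20 members, and for 31.4% of all genes. It stood above all 6 wild-type Avicel and sucrose libraries for 19 members, beside 7 for TBGK on Avicel, 5 for the wild type on cellobiose and 2 for TBGK on sucrose. Of all 9733 genes, 19.5%, 16.8%, 7.70% and 6.50% did so in the same order. The rule had set the members' ceiling in those 6 libraries, so nothing is read from these counts.

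In 4 members TBGK on cellobiose came up to the range of the no carbon libraries. NCU08224 had 2218 FPKM there, 138% of the no carbon mean of 1610.0 and above all 3 no carbon libraries. NCU02579 had 2388 FPKM, above the no carbon mean of 2328 and inside its range. NCU01861 with 686 and NCU06625 with 197 FPKM were above the lowest no carbon library only. At the other end NCU08425 had 14.6 FPKM, 6.96% of its no carbon mean of 209. NCU05784 was the one member to reach its lowest no carbon library in TBGK on Avicel, with 91.7 against 88.8 FPKM.

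The wild type on cellobiose was compared with TBGK on sucrose, the only sucrose library outside the triplicates, so strain and medium cannot be told apart in it. It was at least 2-fold higher for 16 members and lower for 1, NCU08425 (4.16 against 15.9 FPKM), beside 11.7% and 3.39% of all genes. The median was 1.17 log2 units. NCU00175 differed most, by 5.08 (193 against 4.71 FPKM), then NCU01861 by 4.63 (85.6 against 2.49) and NCU05189 by 3.98 (50.2 against 2.25). NCU05189 had 50.2 FPKM there, 69.6% of its no carbon mean, the highest share of any member on wild-type cellobiose. NCU08152 had 0.650 FPKM, 0.471% of its no carbon mean and the lowest.

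**Figure D3:**
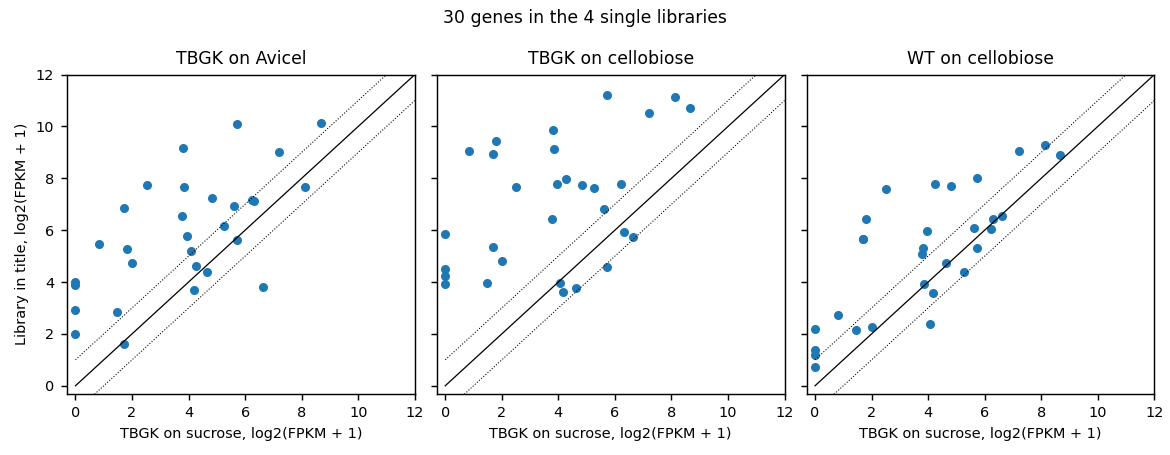
Levels of the 30 genes in TBGK on Avicel, TBGK on cellobiose and the wild type on cellobiose (vertical axes) against TBGK on sucrose (horizontal axes), all in log2(FPKM + 1), 1 library each, with a solid line of equal level and dotted lines at a 2-fold difference. Above the upper dotted line lie 20, 24 and 16 genes, and below the lower one lies 1 gene in each panel.

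The response to a medium is set beside that of the wild type as a description. Each TBGK medium and the wild type on cellobiose had 1 library, whose spread limma over all 13 libraries borrows from the triplicates, and the wild-type Avicel and sucrose values entered the rule. For Avicel against sucrose this fit called a difference in response in 1 member, NCU06153, and in 0.0571% of all genes tested (5 genes). Its TBGK response minus the wild-type response was -2.97 log2 units. On Avicel it had 113 FPKM in TBGK and 303, 247 and 279 in the wild type. On sucrose it had 2.25 in TBGK and 0 in the wild type, so part of the difference on the log scale comes from sucrose.

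For cellobiose against sucrose the same fit called 5 of the 30, and 2.02% of all genes tested. The TBGK response minus the wild-type response was 5.49 log2 units for NCU07718, 5.13 for NCU08152, 4.53 for NCU05585 and 3.73 for NCU07068. On cellobiose NCU07718 had 528 FPKM in TBGK and 5.64 in the wild type, and NCU08152 had 57.0 and 0.650. NCU05585 had 564 and 14.2, and NCU07068 had 929 and 38.9. NCU11944 went the other way, by -2.10, with 22.6 FPKM in TBGK and 38.3 in the wild type on cellobiose, and 51.9 against 18.1, 21.7 and 19.0 on sucrose. The wild-type side of this contrast crosses deposits, and the 1 mutant library on each medium enters all 5 values.

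The members were spread over 7 contigs of the assembly, but 9 of them (30%) lay on contig 7, which holds 10.8% of the genes. Contig 1 held 4 members (13.3%) and 24.1% of the genes. No member overlapped another gene and no pair of members was adjacent. Members had a median transcript length of 1447.5 bases, beside 1599 for all genes. Transcripts under 1000 bases made up 26.7% of the members and 22.2% of all genes, from 342 bases for NCU05784 upward. All 30 had a single transcript, as did 98.3% of all genes.

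The 60 genes next to a member were compared with the rest, since their own values took no part in the choice. Of the 54 tested, 8 (14.8%) were called higher on no carbon than on Avicel by limma and 0 lower, beside 1.72% of all genes higher. At an unadjusted p under 0.05 they were 15 and 1. Among the 8, NCU01111 and NCU08153 had lowest no carbon values of 4.44 and 8.74 FPKM, under the minimum of 10. NCU08225, also among them, was called lower on no carbon than on sucrose. The count of 8 rests on single libraries: it fell to 0 without no carbon replicate 1, without no carbon replicate 3 or without Avicel replicate 3. Over the same leave-one-out fits the calls among all genes ran from 58 to 224. The median difference was 0.39 log2 units for the neighbours and 0.16 for all genes tested. Against sucrose 31 of the 54 (57.4%) were called higher on no carbon, beside 40.2% of all genes. In that contrast 5 neighbours were called lower, beside 2111 of all 8759 genes tested. A fold between 1.5 and 2, just short of the rule, was found in 5 of the 60 neighbours (8.33%) and in 0.812% of all genes.

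The neighbours named here were chosen after their values were seen. gh47-5 (NCU07067), a glycoside hydrolase by its symbol, lies 1955 bases from NCU07068. It had 1229, 443 and 1038 FPKM on no carbon and 184, 236 and 233 on Avicel, with 3.05, 4.42 and 6.00 on sucrose, and the groups did not overlap. Its difference between no carbon and Avicel was 1.93 ± 0.38 (SE), with an adjusted p of 0.0202 by limma. NCU06809, 86 bases from NCU11944, had 163, 160.2 and 163 FPKM on no carbon and 65.1, 81.8 and 74.9 on Avicel. fbp-1 (NCU04797), which encodes the gluconeogenic enzyme fructose bisphosphatase, lies 1080 bases from NCU04796. It had 867, 1348 and 522 FPKM on no carbon and 408, 283 and 153 on Avicel, which did not pass (adjusted p 0.112 by limma). al-2, a carotenoid gene next to ncw-6, had 802, 2051 and 5702 FPKM on no carbon and 1053, 829.5 and 922 on Avicel, which overlapped.

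**Figure D4:**
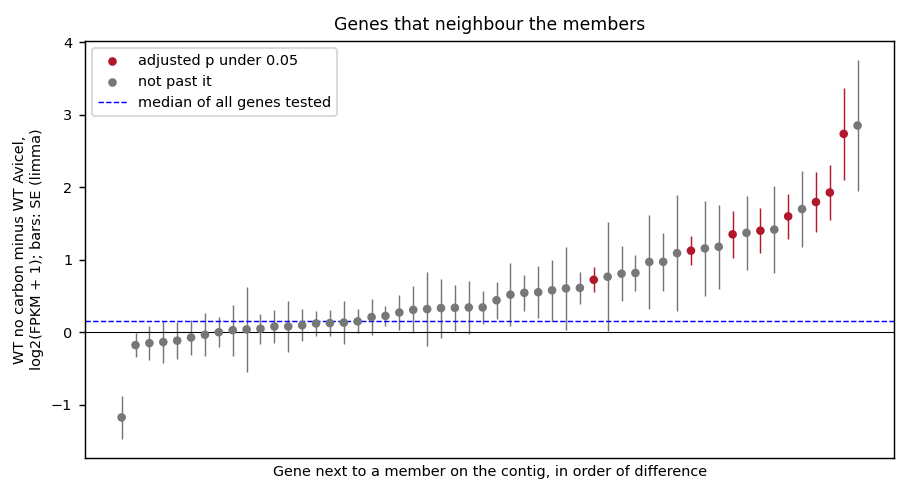
Difference between the wild type on no carbon and on Avicel for the 54 tested genes that lie next to one of the 30, in log2(FPKM + 1), in order of size and with bars for the SE of limma. The 8 genes past the test all lie above 0, and the dashed line marks the median of all genes tested at 0.16.

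The processes known for carbon starvation were followed in lists of genes with symbols. None of the lists holds a member, but only 2 members carry a symbol, so nothing is read from this. One of them, ada-6, is needed for asexual development, yet its symbol is outside the patterns of the conidiation list. Over all 8759 genes tested, limma called 151 higher and 342 lower on no carbon than on Avicel, and 3522 higher and 2111 lower than on sucrose. For conidiation, 0 of 11 genes were called in either direction on no carbon against Avicel, while 6 were higher and 0 lower at an unadjusted p under 0.05 by limma. In 5 of the other 16 fits 1 gene was called higher. Their median difference was 1.41 log2 units, against 0.16 for all genes tested. Against sucrose 10 of the 11 were higher and 0 lower. con-10 fell just outside the rule with 1399.9, 1850.5 and 2575 FPKM on no carbon and 158, 699 and 679.5 on Avicel, with 0, 5.38 and 0 on sucrose. eas, which encodes the hydrophobin of the conidial rodlet layer, had 206272, 78251 and 65514 FPKM on no carbon and 34619.9, 20370.7 and 17326 on Avicel, with 62.5, 388 and 155 on sucrose. These 2 genes, con-13 and csp-1 separate all 3 groups. In the rest of the list, con-6, con-8, ccg-9, csp-2, fl, rca-1 and acon-3, no carbon and Avicel libraries overlapped. The differences for csp-2 and ccg-9 were -0.13 and -0.50 log2 units, lower on no carbon.

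Each of the 7 markers of conidia and aerial hyphae (con-6, con-8, con-10, con-13, eas, fl and ccg-9) was lower in every wild-type sucrose library than in any on Avicel or no carbon. By limma all 7 were higher on no carbon than on sucrose and 0 of 7 were called against Avicel. Their summed level was 81324 to 212565 FPKM on no carbon, 19834 to 41584 on Avicel and 146 to 454 on sucrose. Without eas it was 6293 to 15810.0 on no carbon, 2509 to 6964 on Avicel and 47.4 to 83.6 on sucrose. With eas, the sum in the single libraries was 39608 in TBGK on cellobiose, 18946 in the wild type on cellobiose, 12554 in TBGK on Avicel and 159 in TBGK on sucrose. Without eas it was 10424, 419, 3256 and 86.7 in the same order, so that TBGK on Avicel then stood above the wild type on cellobiose. No marker was at 0 on no carbon or Avicel, and 1 to 4 of the 7 were at 0 in each wild-type sucrose library. Their part in the members' values was not tested.

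Of 7 genes in the glyoxylate cycle and gluconeogenesis list, 1 was higher and 0 lower than on Avicel, and 5 were higher and 2 lower than on sucrose. The list took every acu symbol and fbp-1 by pattern, so it can hold genes outside these pathways. The 2 lower than on sucrose were acu-5 and acu-8. The 1 gene higher than on Avicel was acu-3, the isocitrate lyase gene, with 1874, 836 and 808 FPKM on no carbon and 293, 229.5 and 151 on Avicel. It was higher by 2.31 ± 0.38 (SE), with an adjusted p of 0.00821 by limma, and its fold for the rule was 1.54. Of 4 trehalose and glycogen genes, 0 were higher and 1, the glycogen synthase gene gsy-1, was lower than on Avicel, and 1 was higher and 2 lower than on sucrose. Among 3 sugar transport genes 2, the cellodextrin transporters cdt-1 and cdt-2, were lower than on Avicel, and 3 were higher than on sucrose.

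Of 76 glycoside hydrolase genes tested, 2 were higher on no carbon than on Avicel, gh47-5 and gh31-1, and 29 were lower. Against sucrose 50 were higher and 5 lower. Of 9 chitinase genes 0 were called against Avicel, and 6 were higher and 1 lower than on sucrose. Both autophagy genes with a symbol were higher than on sucrose and not called against Avicel. Of 14 vacuolar ATPase genes 4 were higher than on sucrose and 0 were called against Avicel.

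Among 14 light response and carotenoid genes, 1, the cryptochrome gene cry, was higher on no carbon than on Avicel, by 2.25 ± 0.52 (SE) with an adjusted p of 0.0432 by limma. Over the alternatives the count ran from 0 to 4, the highest without no carbon replicate 1. Against sucrose 11 were higher. Of 9 clock-controlled genes 0 were called against Avicel, and 6 were higher and 1 lower than on sucrose. Of 8 alternative respiration genes 1 was higher than on Avicel, aod-2, a regulator of the alternative oxidase, and 1 was lower, nde-2, with 2 higher and 2 lower than on sucrose.

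Of 10 nitrogen genes 0 were higher and 2 lower than on Avicel, am (glutamate dehydrogenase) and nit-6 (nitrite reductase). Against sucrose 3 were higher and 6 lower. Of 6 catalase and superoxide dismutase genes 0 were called against Avicel, and 3 were higher and 2 lower than on sucrose. Of 6 mating genes, a list whose pattern also took the amino acid permease gene mtr, 0 were called against Avicel, and 4 were higher and 1 lower than on sucrose. Of 9 histone genes 0 were called against Avicel, and 1 was higher and 2 lower than on sucrose. At an unadjusted p under 0.05 by limma, no carbon against Avicel gave 1 of 2 autophagy and 1 of 14 vacuolar ATPase genes higher, 1 clock-controlled and 1 chitinase gene lower, 1 catalase or dismutase gene each way, and 0 mating and 0 histone genes.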

How the data were processed

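Polyadenylated RNA was sequenced in 13 libraries. Values were deposited as FPKM. The submitters' processing notes name TopHat, without a version, and Cufflinks 0.9.3. Positions follow the deposited tables, whose genome build is not given in the sources used here. Depth came from the coverage (reads per base) and effective transcript length that the deposited tables of the 9 wild-type triplicates give. It is not known for the 4 single libraries. Whole reads were not recovered, so no counting interval is given. Summed FPKM differed between media, so small differences depend on the scaling. Symbols came from a reference table of assembly NC12, which matched 9016 of 9733 identifiers and gave 1106 a symbol.

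FPKM was summed per gene with Python 3.11.15, pandas 2.3.3 and numpy 2.4.6, and drawn with matplotlib 3.10.9. Wild-type groups were compared with limma 3.58.1 under R 4.3.3, its moderated test with an intensity trend, on log2(FPKM + 1), in one fit over 9 libraries, for 8759 genes that reached an FPKM of 1 in 3 or more libraries. Genes with a Benjamini-Hochberg adjusted p under 0.05 were called. The p-values refer to the spread between these replicates. Simulated data were used to check the fit. Single libraries were compared by fold without a test. A second fit over all 13 libraries described the strain by medium differences. The log2 scale with 1 added understates changes of low genes.

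The members and the gene lists were chosen with earlier results of these data known. The text names members with a symbol, the 10 highest on no carbon, the 10 with the largest fold, the 5 largest and 5 smallest differences past the threshold in the Avicel against sucrose and TBGK comparisons, the genes nearest to the thresholds and up to 4 called genes a list. The lists were conidiation, glyoxylate cycle and gluconeogenesis, autophagy, peroxins, light response and carotenoids, clock-controlled genes, catalases and superoxide dismutases, nitrogen use, sugar transport, glycoside hydrolases, chitinases, mating, trehalose and glycogen, alternative respiration, vacuolar ATPase and proteases, and histones. The peroxin list matched 0 symbols and was not used, and the protease pattern of the vacuolar list matched none. Alternatives were another pseudocount, no filter, quantile or median-of-ratios scaling, a replicate block, 13 libraries and leaving out each library.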

Additional observations from a re-analysis of the deposited data

Results flagged for a closer look

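In 6 cases limma over all 13 libraries called a difference between TBGK and the wild type in a member's response to a medium. The mutant and the wild type on cellobiose have 1 library each, with a spread borrowed from the triplicates, and the wild-type Avicel and sucrose values entered the choice of the members. The values are therefore descriptions. For Avicel minus sucrose, the response of NCU06153 was -2.97 log2 units in TBGK relative to the wild type. For cellobiose minus sucrose, the response in TBGK relative to the wild type was 5.49 for NCU07718, 5.13 for NCU08152, 4.53 for NCU05585, 3.73 for NCU07068 and -2.10 for NCU11944.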

How the results depend on the processing

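The number of genes meeting the rule was 30, and became 46 under quantile normalization (27 of them members), 109 with a fold of 1.5, 5 with a fold of 3 and 74 without the 2 shallowest libraries, the last chosen after seeing the data. With each library left out in turn it ran from 30 to 106, and all 30 stayed in each time, since leaving out a library can only relax the rule. Median-of-ratios scaling gave 25, all of them members; NCU06153, NCU11944, NCU10063, NCU07068 and NCU05784 were lost.

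Members higher on Avicel than on sucrose numbered 21, with 18 to 23 over all alternatives, 20 to 23 with a library left out, 23 without the 2 shallowest libraries and 22 with the replicate block. The number lower was 0, and 2 under quantile normalization. Replicate numbers were not taken to pair samples: deviations of libraries with the same number correlated between -0.31 and 0.45. With the block, the genes called higher on no carbon than on Avicel fell from 151 to 96. Over single members and alternatives, 324 results kept their call and 12 lost it, 10 of them for NCU02365. NCU11944 and NCU05784 lost it under quantile normalization. The cause was not tested. The Avicel and sucrose values entered the rule, so the members' counts and calls are descriptions. Nothing is read from their stability.

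With limma over 13 libraries in place of a fold of 2, the members called were 9 higher and 0 lower for TBGK Avicel against TBGK sucrose, 4 and 0 for the wild type on cellobiose against TBGK sucrose, and 0 and 0 for TBGK cellobiose against TBGK Avicel. For TBGK cellobiose against TBGK sucrose they were 16 and 1. In the same fits and order, 12.7% and 9.78%, 1.36% and 0.103%, 0.0114% and 0.0228%, and 15.9% and 12.7% of all genes tested were called. The fits assume that single libraries, which have no replicate, vary like the triplicates.

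Genes next to a member that were called higher on no carbon than on Avicel numbered 8 of 54, beside 1.72% of all genes tested. When a library was left out they numbered 0 to 9, beside 0.662% to 2.56% of all genes. With the block they numbered 5, beside 1.10%, and without the 2 shallowest libraries 11, beside 4.32%. These settings were chosen after seeing the data. When the genes 2 places away were also counted, 9 were called, in a wider set whose size is not given here, so nothing is read from it. Promoter motifs and protein lengths were planned and not run, since no sequence table was used here.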
